A study of Mus musculus with 2 samples.

Results

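Ccl3, Ccl4, Ccl5 and Xcl1 encode chemokines made by activated and cytotoxic T cells, and Xcr1 encodes the receptor of the Xcl1 product. These 5 genes, of 56980 in the count tables, were taken by symbol and each matched 1 row: Ccl3 (ENSMUSG00000000982), Ccl4 (ENSMUSG00000018930), Ccl5 (ENSMUSG00000035042), Xcl1 (ENSMUSG00000026573) and Xcr1 (ENSMUSG00000060509). They were described in 2 droplet single-cell RNA libraries from the small intestine of mice, 1 labelled model and 1 labelled control. The series title names simulated microgravity, radiation and compounds called CB001. The labels do not give what the model library's donor received, how many animals were pooled, their strain, sex or age, or the stretch of gut. Both libraries came from tissue freed of mesentery and Peyer's patches and digested with EDTA and then collagenase. With 1 library a group there is no replicate of either group and no test was possible, so all intervals are 95% intervals that cover counting error of UMIs (unique molecular identifiers, one per captured transcript) or cells only. The genes were chosen by their T cell levels in these same libraries (Ccl3 and Ccl4 higher and Xcl1 lower in the model library), so those levels are a description.

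A chemokine is a small secreted protein that draws cells bearing its receptor. The products of Ccl3 and Ccl5 bind Ccr1, which sits on myeloid cells. Cytotoxic lymphocytes hold Ccl5 transcript at rest and switch on Ccl3, Ccl4 and Xcl1 after receptor stimulation. Xcr1 in mice marks the conventional dendritic cells that cross-present antigen to CD8 T cells.

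The stretches of 250 bases before the annotated start of Ccl3 and of Xcl1 are shown. In T cells Ccl3 was higher and Xcl1 lower in the model than in the control library. Both stretches come from RefSeq windows on GRCm38.p6, an older build than the count tables. Of the 5 genes 3 (Ccl3, Xcl1 and Xcr1) had a window, so Ccl4 and Ccl5, also higher in model T cells, could not be shown. The Ccl3 stretch is chr11:83649379-83649628 and the Xcl1 stretch is chr1:164935523-164935772, both on the minus strand and written 5′ to 3′ in the direction of transcription. Capitals mark matches, on either strand, to GGAAA (the NFAT core) or TATAA.
Ccl3: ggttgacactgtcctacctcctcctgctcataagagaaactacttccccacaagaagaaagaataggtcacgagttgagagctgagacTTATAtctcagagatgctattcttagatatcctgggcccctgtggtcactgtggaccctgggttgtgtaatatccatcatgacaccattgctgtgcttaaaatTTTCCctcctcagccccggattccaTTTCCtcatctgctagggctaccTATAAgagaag
Xcl1: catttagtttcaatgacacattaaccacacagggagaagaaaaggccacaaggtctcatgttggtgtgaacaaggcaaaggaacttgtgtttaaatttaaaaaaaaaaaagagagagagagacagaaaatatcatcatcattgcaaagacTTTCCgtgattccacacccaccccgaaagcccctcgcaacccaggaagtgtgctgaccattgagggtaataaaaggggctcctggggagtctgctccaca
The Ccl3 stretch held 2 matches to GGAAA and 2 to TATAA, and the Xcl1 stretch held 1 match to GGAAA. Of 32851 RefSeq windows cut to the same length, 55.6% held GGAAA and 22.8% held TATAA. Neither stretch held TGANTCA (the AP-1 motif, in 6.75% of windows) or the NF-kB motif searched (GGGA, any 4 bases, then CC, in 17.6% of windows). These matches are letters in a window, with no measure of binding.

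The model library held 11468 barcodes with 76701215 UMIs and the control library 10259 barcodes with 61370270 UMIs. After filters on UMIs, genes and mitochondrial share, 7913 model cells and 7329 control cells were kept, with a median of 3761 and 3636 UMIs and a median mitochondrial share of 5.38% and 10.8%. Of the kept barcodes, 12 occurred in both libraries. Cells were clustered with every chemokine and chemokine receptor gene left out of the variable genes, and classes were named from marker genes that include none of them. Names carry "-like" in this sense throughout: they rest on rebuilt clusters. The T cell class held 2318 model and 1148 control cells, and all 10 T cell markers were detected in it in both libraries. T cells were gated by transcript into a gamma-delta gate (Trdc present, Cd4 absent; 1131 model and 668 control cells), a CD8 alpha-alpha gate (Cd8a without Cd8b1; 708 and 266), a CD8 alpha-beta gate (Cd8b1; 235 and 110) and a CD4 gate (69 and 28). The gamma-delta gate goes by transcript and not by receptor protein: 55.2% of its model cells and 57.0% of its control cells also held a Trac UMI. The CD8 alpha-alpha gate rests on the absence of Cd8b1, a sparse transcript. In the CD8 alpha-beta gate 47.2% of model and 44.5% of control cells held a single Cd8b1 UMI. Cells whose Cd8b1 went undetected may thus lie in the CD8 alpha-alpha gate. The myeloid classes were macrophage-like (208 and 227 cells), dendritic-like (101 and 86) and plasmacytoid dendritic-like cells (23 and 39), and the innate lymphoid class that could be compared was ILC3-like (58 and 27).

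T cells held most of the transcripts of all 4 ligand genes. Of all Ccl3 UMIs in kept cells, 80.0% of the model library's and 59.7% of the control library's lay in the T cell class, and for Ccl4 the shares were 81.9% and 64.4%. The shares were 92.5% and 89.9% for Ccl5 and 94.1% and 93.2% for Xcl1. T cells made up 29.3% of kept model cells and 15.7% of kept control cells, so the higher model shares of Ccl3 and Ccl4 stand beside more T cells. Macrophage-like cells, at 2.63% of model and 3.10% of control cells, held 9.96% of the model library's and 26.9% of the control library's Ccl3 UMIs.

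**Figure D1:**
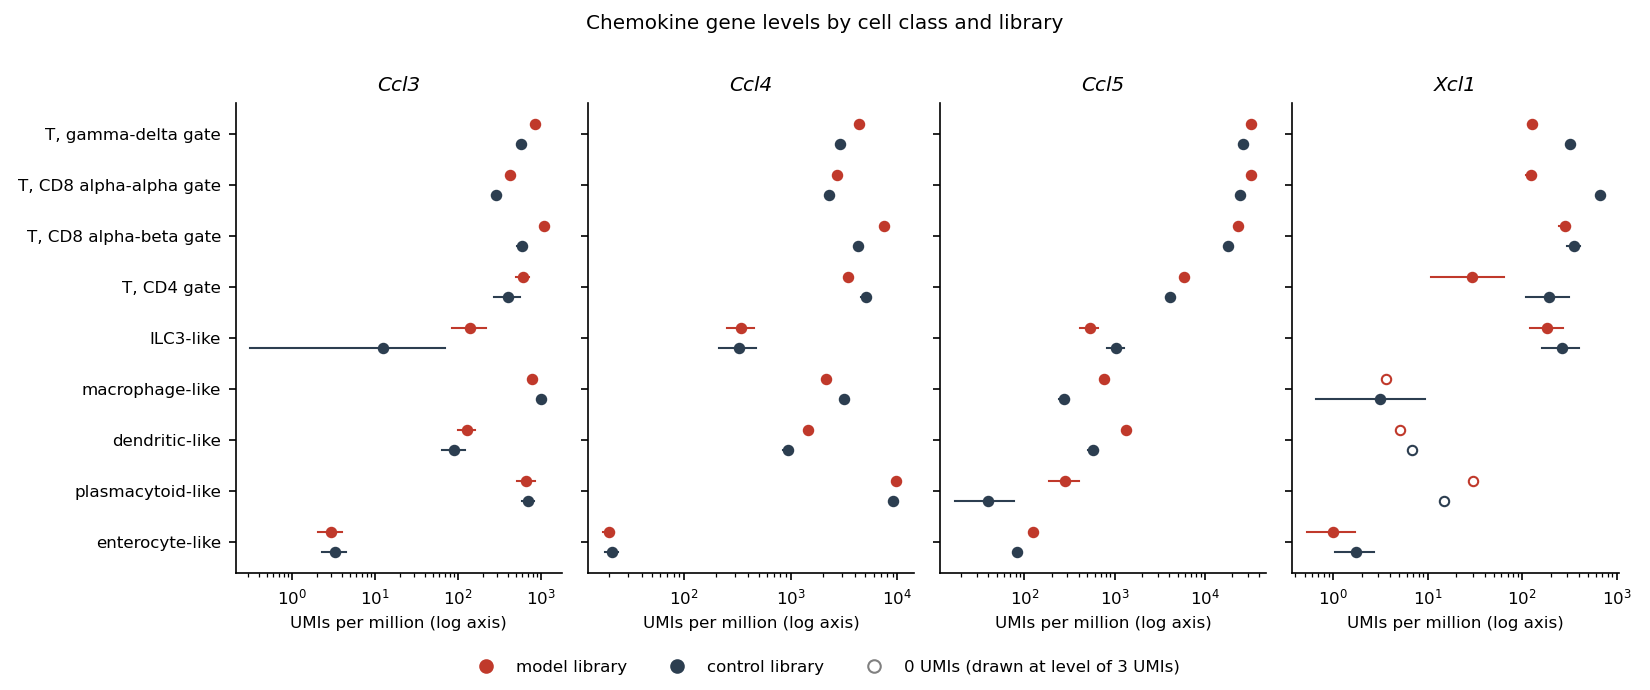
Level of Ccl3, Ccl4, Ccl5 and Xcl1 in CPM (log axis) in the T cell gates, the other immune classes and enterocyte-like cells, model above control. Points are summed UMIs of 1 library, lines 95% Poisson intervals, and open points 0 UMIs drawn at the level of 3 UMIs. Ccl5 was highest in the gamma-delta and CD8 alpha-alpha gates, at 32631 and 32446 CPM in the model library, while Ccl4 peaked in plasmacytoid dendritic-like cells.

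Ccl3, whose product attracts monocytes, lymphocytes and dendritic cells, was found in T cells, macrophage-like cells and plasmacytoid dendritic-like cells, in an order that differed between the libraries. Levels are in CPM, the UMIs of a gene scaled to a fixed total of UMIs in the class. In the model library the CD8 alpha-beta gate was highest at 1102 CPM, followed by the gamma-delta gate at 859 CPM, macrophage-like cells at 773 CPM, plasmacytoid dendritic-like cells at 662 CPM and the CD4 gate at 608 CPM, where each of the last 4 had an interval that overlapped the next. In the control library macrophage-like cells were highest at 1013 CPM, followed by plasmacytoid dendritic-like cells at 705 CPM, the CD8 alpha-beta gate at 587 CPM, the gamma-delta gate at 583 CPM and the CD4 gate at 400 CPM, again with overlapping neighbours after the first. The CD8 alpha-alpha gate had 422 CPM in the model and 290 CPM in the control, dendritic-like cells 129 and 90.1 CPM, and ILC3-like cells 141 and 12.5 CPM. Enterocyte-like cells, which should lack the gene, had 2.92 CPM in the model and 3.28 CPM in the control library.

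In the T cell class, Ccl3 had 5189 UMIs (735 CPM, 95% Poisson interval 715 to 755) in the model library and 2129 UMIs (506 CPM, 484 to 528) in the control library. The model level was 1.45 times the control level (95% interval 1.38 to 1.53). The share of T cells with a Ccl3 UMI, after each cell was thinned to 1000 UMIs, was 25.9% in the model (24.1 to 27.8, exact binomial) and 20.5% in the control (18.2 to 23.0). Enterocyte-like cells thinned in the same way gave 0.647% and 0.227%. Unthinned, the T cell shares were 41.4% and 35.4%, at median depths of 2777 and 3252.5 UMIs, against 2.61% and 1.93% of enterocyte-like cells at 6978.5 and 4306 UMIs. The level difference went the same way in all 4 gates, with ratios of 1.47 in the gamma-delta, 1.45 in the CD8 alpha-alpha, 1.88 in the CD8 alpha-beta and 1.52 in the CD4 gate. The CD4 value rests on 125 model and 33 control UMIs and was 3.19 without cells in which 1% of UMIs came from epithelial or plasma cell markers.

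Ccl4, a close relative of Ccl3, had more UMIs than Ccl3 in each of these classes. Plasmacytoid dendritic-like cells, which are known for interferon production, had the highest level of the classes compared in each library, with 972 Ccl4 UMIs in 23 model cells (9752 CPM) and 1829 UMIs in 39 control cells (9011 CPM). In this class 10 of 10 plasmacytoid markers were detected in each library. Of 10 T cell markers 6 were detected in each, summing to 261 CPM in the model and 335 CPM in the control, with Trbc1, Trbc2 and Cd247 at 0 UMIs in both. The part of these in the Ccl4 level was not tested. Next in the model library came the CD8 alpha-beta gate at 7512 CPM, the gamma-delta gate at 4391 CPM, the CD4 gate at 3446 CPM, the CD8 alpha-alpha gate at 2698 CPM and macrophage-like cells at 2155 CPM. The order in the control library was the CD4 gate at 5030 CPM, the CD8 alpha-beta gate at 4236 CPM, macrophage-like cells at 3189 CPM, the gamma-delta gate at 2918 CPM and the CD8 alpha-alpha gate at 2270 CPM. Dendritic-like cells followed at 1465 CPM in the model and 937 CPM in the control.

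In the T cell class Ccl4 had 4131 CPM in the model library (95% interval 4083 to 4178) and 2918 CPM in the control library (2866 to 2970), a ratio of 1.42 (1.39 to 1.45). After thinning, 56.1% of model T cells (54.0 to 58.2) and 48.7% of control T cells (45.7 to 51.7) held a Ccl4 UMI, against 2.67% and 2.10% of enterocyte-like cells. In the CD8 alpha-beta gate the ratio was 1.77 (1.68 to 1.87). It was 1.505 (1.46 to 1.55) in the gamma-delta gate and 1.19 (1.130 to 1.249) in the CD8 alpha-alpha gate. A single control cell held 378 of the 2112 control Ccl4 UMIs of the CD8 alpha-alpha gate. The ratio of this gate lay between 1.09 and 1.49 over the alternatives tried. CD4 gated cells went the other way, with 708 UMIs (3446 CPM) in 69 model cells and 415 UMIs (5030 CPM) in 28 control cells, a ratio of 0.685 (0.606 to 0.775). Of the control UMIs 406 lay in 8 cells, and the share of CD4 gated cells with Ccl4 did not follow the level, at 49.3% in the model and 42.9% in the control. A larger group did not share this direction. In a subclustering of the lymphocytes, subcluster 2 was named CD4 T cell from its markers and held 253 model and 86 control cells. Most of these cells lay outside the CD4 gate. The Ccl4 interval of subcluster 2 lay above 1, and the part of the cells outside the gate in it was not tested.

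**Figure D2:**
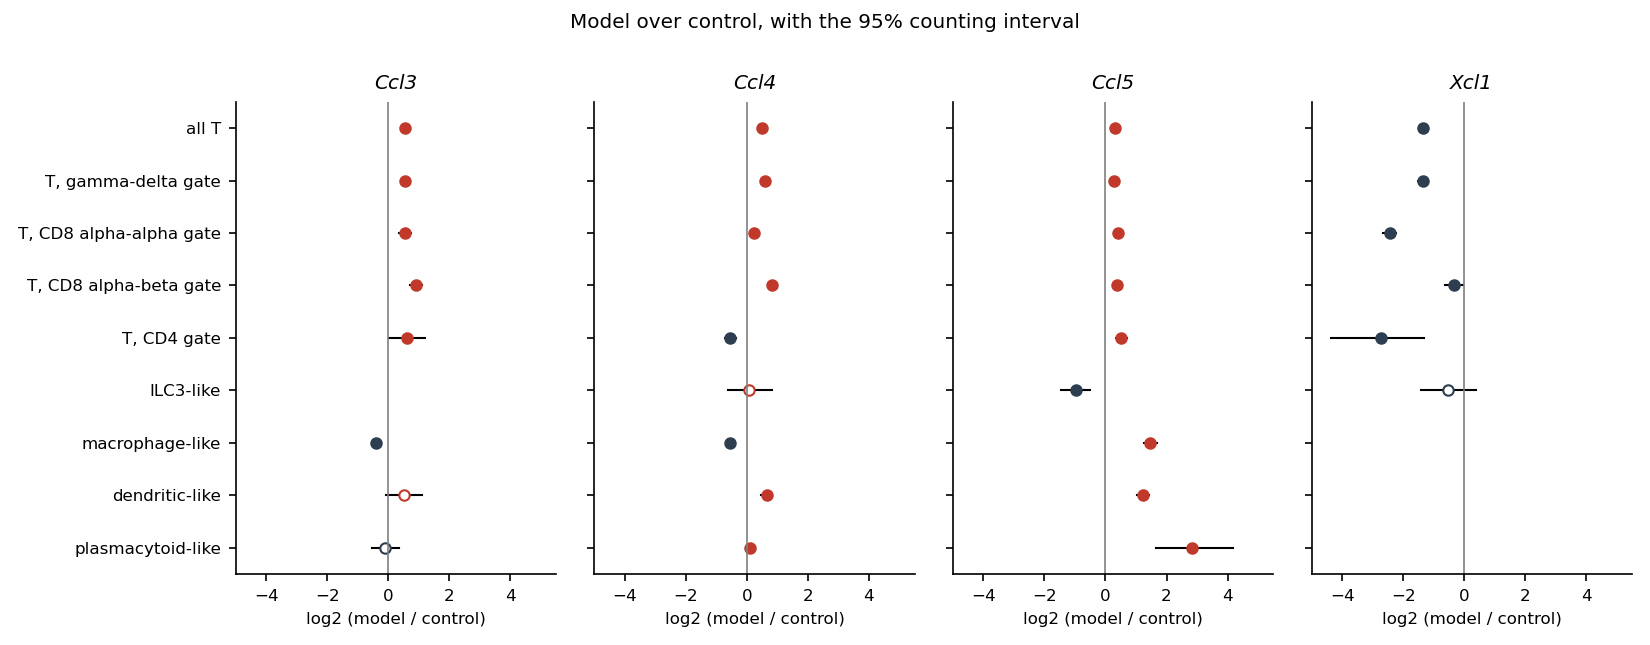
Log2 of the model over control level (x axis) for the 4 ligand genes in all T cells, the T cell gates and the other immune classes. Lines are 95% binomial intervals of the ratio, open points have an interval that includes 0, and a class with under 4 UMIs in either library is not drawn. Ccl3, Ccl4 and Ccl5 lie right of 0 in all T cells and Xcl1 left of it, at a ratio of 0.395.

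Ccl5, whose product binds Ccr1 and Ccr3, took a large part of the UMIs of these T cells. It made up 30054 CPM of the model T cell class (212234 UMIs) and 24458 CPM of the control class (102974 UMIs), a ratio of 1.23 (1.22 to 1.24). The median per-cell level was 29559 CPM in the model and 23429 CPM in the control. After thinning, 96.4% of model T cells and 94.2% of control T cells held a UMI, a larger share than for Ccl3 or Ccl4. The gamma-delta gate had 32631 CPM in the model and 26780 CPM in the control, and the CD8 alpha-alpha gate 32446 and 24647 CPM, with overlapping intervals between these gates in the model library only. The CD8 alpha-beta gate had 23297 and 17916 CPM and the CD4 gate 5938 and 4145 CPM. Model over control ratios were 1.22, 1.32, 1.30 and 1.43 in the gamma-delta, CD8 alpha-alpha, CD8 alpha-beta and CD4 gates.

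Outside T cells Ccl5 was much lower. Dendritic-like cells had 1352 CPM in the model and 577 CPM in the control, macrophage-like cells 760 and 273 CPM, and ILC3-like cells 529 and 1038 CPM. Enterocyte-like cells had 125 and 83.1 CPM, and after thinning 9.79% and 6.06% of them held a UMI. The thinned shares of macrophage-like cells, 11.6% and 8.25%, and of dendritic-like cells, 11.8% and 8.96%, had intervals that overlapped those of enterocyte-like cells. Detection there was thus not set apart from background, though overlap does not show equal shares. The levels were above the enterocyte-like level, 6.06 and 3.29 times in macrophage-like and 10.8 and 6.94 times in dendritic-like cells. The macrophage-like ratio of levels, 2.78, was 4.20 without the cell with most Ccl5 UMIs in each library and 6.97 without the highest doublet scores. All 10 T cell markers were detected in the macrophage-like class and summed to 226 CPM in the model and 123 CPM in the control. In the dendritic-like class they summed to 227 and 315 CPM. Their part in the Ccl5 values was not tested.

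Xcl1, lymphotactin, was the only member lower in model than in control T cells. The class held 1109 Xcl1 UMIs in the model library (157 CPM, 148 to 167) and 1675 in the control library (398 CPM, 379 to 417), a 2.53-fold lower level (95% interval 2.35 to 2.74). After thinning, 6.77% of model T cells (5.77 to 7.89) and 8.82% of control T cells (7.22 to 10.6) held an Xcl1 UMI, with overlapping intervals, against 0% and 0.170% of enterocyte-like cells. Cells with a UMI averaged 4.72 Xcl1 UMIs in the model and 10.7 in the control, or 4.45 and 8.47 without the highest cell of each library. The libraries were thus further apart in mean UMIs per positive cell than in the share of positive cells. The medians of positive cells were closer, at 2 UMIs in the model and 3 in the control. Cells with 10 or more Xcl1 UMIs, 29 in the model and 31 in the control, held 560 and 1302 of the UMIs. Unthinned, 10.1% of model T cells (8.94 to 11.4) and 13.6% of control T cells (11.7 to 15.7) held an Xcl1 UMI, with intervals apart.

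A few cells carried much of the Xcl1 transcript. The 24 model T cells with most Xcl1 UMIs (1% of the class) held 46.0% of the class's Xcl1 UMIs, and the 12 such control cells held 61.5%. A single control T cell held 362 Xcl1 UMIs, 5.28% of its 6851 UMIs and 21.6% of all Xcl1 UMIs of control T cells. The next control cell held 216, while the highest model cell held 67. That control cell also held 378 Ccl4 UMIs, 8 Cd8a and 9 Trac UMIs, no Trdc and 1 Gzmb UMI. Without the highest cell of each library, Xcl1 was at 148 CPM in model and 312 CPM in control T cells, 2.12-fold lower (1.95 to 2.30), and without the top 1% of each library 1.82-fold lower.

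The Xcl1 difference was uneven over the gates. In the gamma-delta gate the level was 126 CPM in the model and 319 CPM in the control, 2.54-fold lower (2.26 to 2.85). Without the highest cell of each library it was 112 CPM and 234 CPM, 2.09-fold lower (1.84 to 2.38). In the CD8 alpha-alpha gate it was 123 CPM and 672 CPM, 5.45-fold lower (4.72 to 6.31), but without the highest cell of each library 93.1 CPM and 285 CPM, 3.06-fold lower (2.54 to 3.69). In the CD8 alpha-beta gate, which had a larger share of Xcl1-positive cells than the gamma-delta and CD8 alpha-alpha gates (24.7% of model and 27.3% of control cells), it was 281 CPM and 353 CPM, 1.26-fold lower (1.02 to 1.55), and without the highest cell of each library the interval of the ratio included 1 (0.731 to 1.19). The CD4 gate had 6 UMIs in 69 model cells and 16 in 28 control cells. T cells that fell in no gate had more in the model library, 178 UMIs (513 CPM) in 175 model cells and 64 UMIs (313 CPM) in 76 control cells. Of these model UMIs a single cell held 59 and another 28, and the level without such cells was not taken.

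Read against all genes, the T cell class of the model library had 1.56% of 9023 genes called higher and 2.09% called lower, where a call needs at least 50 UMIs in the higher library, a ratio of at least 1.5 either way and an interval that excludes 1. Of the 4 ligand genes 1, Xcl1, was called (lower). Ccl3, Ccl4 and Ccl5 had intervals that exclude 1 but ratios under 1.5. Since the genes were chosen with this contrast known, nothing is read from the count. By size of ratio, Xcl1 was the 19th lowest of the 9023 genes, Ccl3 the 224th, Ccl4 the 267th and Ccl5 the 784th highest. Within gates, Ccl4 was called higher in the gamma-delta gate (where 1.93% of genes were), at the limit of 1.5 and below it, down to 1.37, under several alternatives, and Ccl3 and Ccl4 in the CD8 alpha-beta gate (5.15% higher and 4.85% lower over all genes). Xcl1 was called lower in the gamma-delta gate (2.25% of genes) and the CD8 alpha-alpha gate (2.5% lower and 2.62% higher). In the CD4 gate Ccl3 was called higher (12.4% of genes higher and 8.64% lower).

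**Figure D3:**
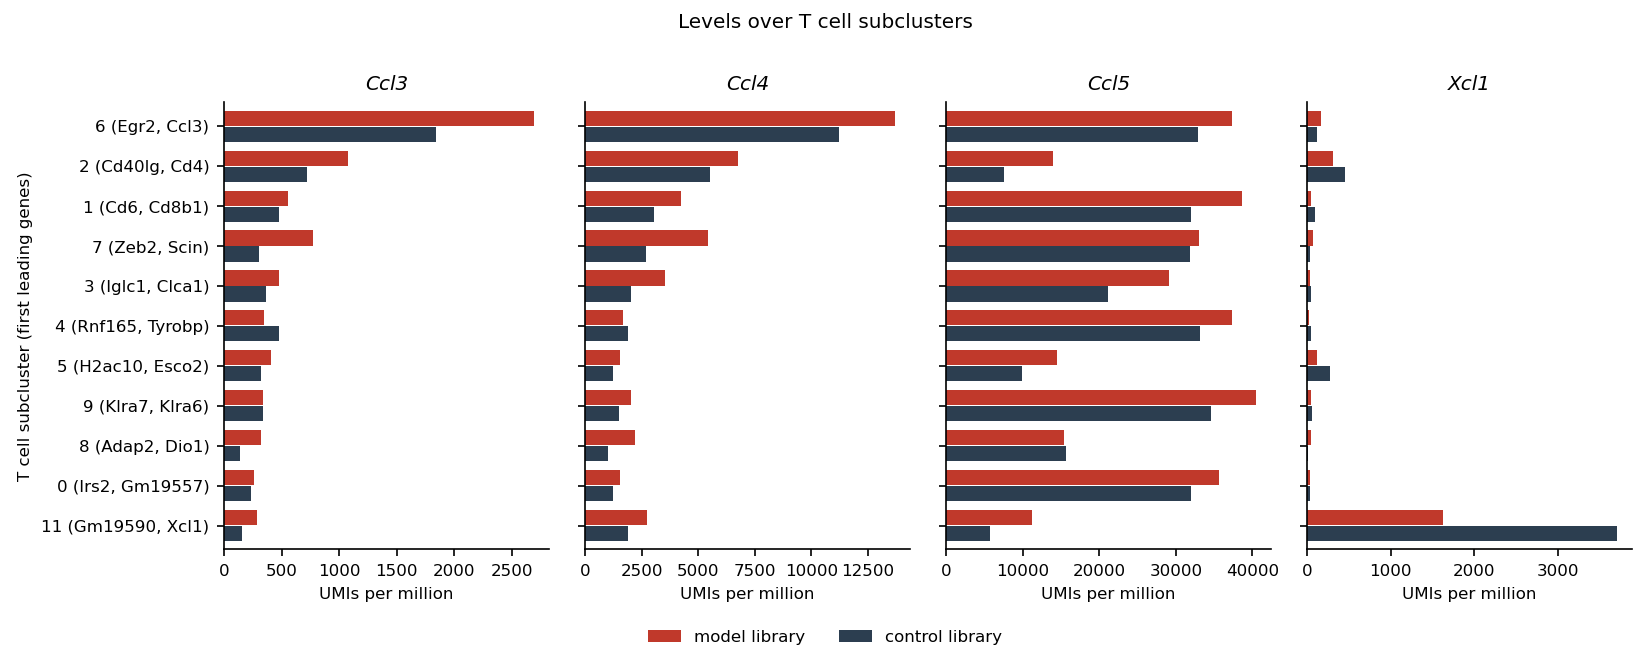
Level in CPM (x axis, linear) of the 4 ligand genes in the 11 T cell subclusters with at least 20 cells in each library, model above control, ordered by the Ccl3 level of both libraries. Labels give the subcluster number and its first leading genes. Ccl3 and Ccl4 are highest in subcluster 6 and Xcl1 in subcluster 11, at 1623 (model) and 3704 (control) CPM.

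T cells were also divided into subclusters without use of the chemokine genes. Ccl3 and Ccl4 were highest in subcluster 6, led by Egr2, Tnf, Fos, Nr4a1 and Nr4a2, genes switched on soon after antigen receptor signalling. It made up 15.3% of model and 11.8% of control T cells and held 46.8% of the model and 38.1% of the control T cell Ccl3 UMIs. Within it Ccl3 had 2690 CPM in the model and 1840 CPM in the control, a ratio of 1.46 (1.35 to 1.59). Ccl4 was at 13678 and 11242 CPM there. Over the 11 subclusters with at least 20 cells in each library, the Ccl3 interval lay above 1 in 6, below 1 in 1 and included 1 in 4. For Ccl4 it lay above 1 in 10 and below 1 in 1, and for Ccl5 above 1 in 10. These subclusters were not all free of epithelial transcripts. Subcluster 3, with 116 model and 65 control cells, had the goblet marker Clca1 and Krt19 among its leading genes. Enterocyte markers summed to 2829 CPM in the model and 3090 CPM in the control T cell class. Their part in these counts was not tested. The subcluster in which both Ccl3 (ratio 0.723) and Ccl4 (0.891) were lower in the model was subcluster 4, led by Rnf165, Tyrobp and Matk, with 22.6% of model and 22.5% of control T cells. T cells with a UMI of a Ly49 receptor gene of the Klra family likewise had less Ccl3 in the model, at 351 and 537 CPM (ratio 0.653), and less Ccl4, at 2028 and 2560 CPM (0.792). T cells without one had ratios of 1.64 for Ccl3 and 1.54 for Ccl4.

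Xcl1 was concentrated in subcluster 11, led by Batf3, Tcf7 (a factor of memory-like T cells), Crtam, Nsg2 and Kit, which met no name. Subcluster 11 made up 4.53% of model T cells (105 cells) and 7.93% of control T cells (91 cells), and held 45.4% of the model and 73.9% of the control T cell Xcl1 UMIs. The share of its cells with an Xcl1 UMI was 63.8% in the model (53.9 to 73.0) and 64.8% in the control (54.1 to 74.6). UMIs per positive cell were 7.51 in the model and 21.0 in the control, or 6.61 and 15.1 without the highest cell of each library. The level there was 2.28-fold lower in the model, or 1.88-fold lower (1.67 to 2.11) without the highest cells. In T cells outside subcluster 11, Xcl1 was at 89.8 CPM in the model and 113 CPM in the control, 1.26-fold lower (1.11 to 1.43). Over the 11 subclusters, the Xcl1 interval lay below 1 in 5, above 1 in 2 and included 1 in 4. In subcluster 11 Ccl3, Ccl4 and Ccl5 were higher in the model, with ratios of 1.81, 1.46 and 1.95.

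Ccl3 and Ccl4 transcripts lay in the same cells. Among thinned T cells with a Ccl3 UMI, 85.6% in the model (82.4 to 88.3) and 83.5% in the control (78.0 to 88.0) also held Ccl4, against 45.8% and 39.8% of cells without Ccl3. Xcl1 did not follow them: 7.22% of Ccl3-positive model cells and 6.61% of Ccl3-negative ones held Xcl1, and in the control library 9.57% and 8.62%, with overlapping intervals in both. Of 24 T cell activation genes, 14 in the model and 10 in the control had a share in Ccl3-positive cells above that in Ccl3-negative cells with intervals apart, where 0.675% and 0.482% of all genes did. In the other direction stood 1 gene in the model, Tnfrsf9, and 0 in the control, where 0.602% and 0.389% of all genes did. All genes here means those found in at least 20 cells, not matched to the list by level. Intervals separate less easily for rarely found genes, so the counts and shares are not on equal terms. The genes found more often with Ccl3 included the early genes Egr2 (11.2% of model cells with Ccl3 against 2.22% without; 7.83% against 1.01% in the control) and Nr4a1 (40.5% against 20.9%; 37.8% against 20.5%). The cytokine gene Tnf was found in 7.04% against 1.86% of model and 6.09% against 1.34% of control cells.

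Xcl1-positive T cells differed from the others in their granzymes. Gzmb, a serine protease of cytotoxic granules, was found in 41.4% of Xcl1-positive model cells (33.5 to 49.7) against 88.1% of Xcl1-negative ones, and in 27.3% (18.8 to 37.1) against 83.8% in the control. Gzma, another granule protease, was found in 50.0% against 90.2% in the model and in 40.4% against 89.9% in the control. Cd160, an activating receptor of intraepithelial lymphocytes, was more often found in Xcl1-positive cells, at 42.8% against 22.6% in the model and 46.5% against 22.2% in the control. Ifng, the interferon gamma gene, was found in 13.8% against 4.20% and in 11.1% against 2.83%, and Myc in 19.1% against 7.07% and 22.2% against 5.96%. Counted over the activation list, 12 genes in the model and 6 in the control were more often found in Xcl1-positive cells (1.65% and 1.35% of all genes), and in each library 2, Gzma and Gzmb, less often (0.831% and 0.559%). The shares over all genes were again not matched to the list by level.

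**Figure D4:**
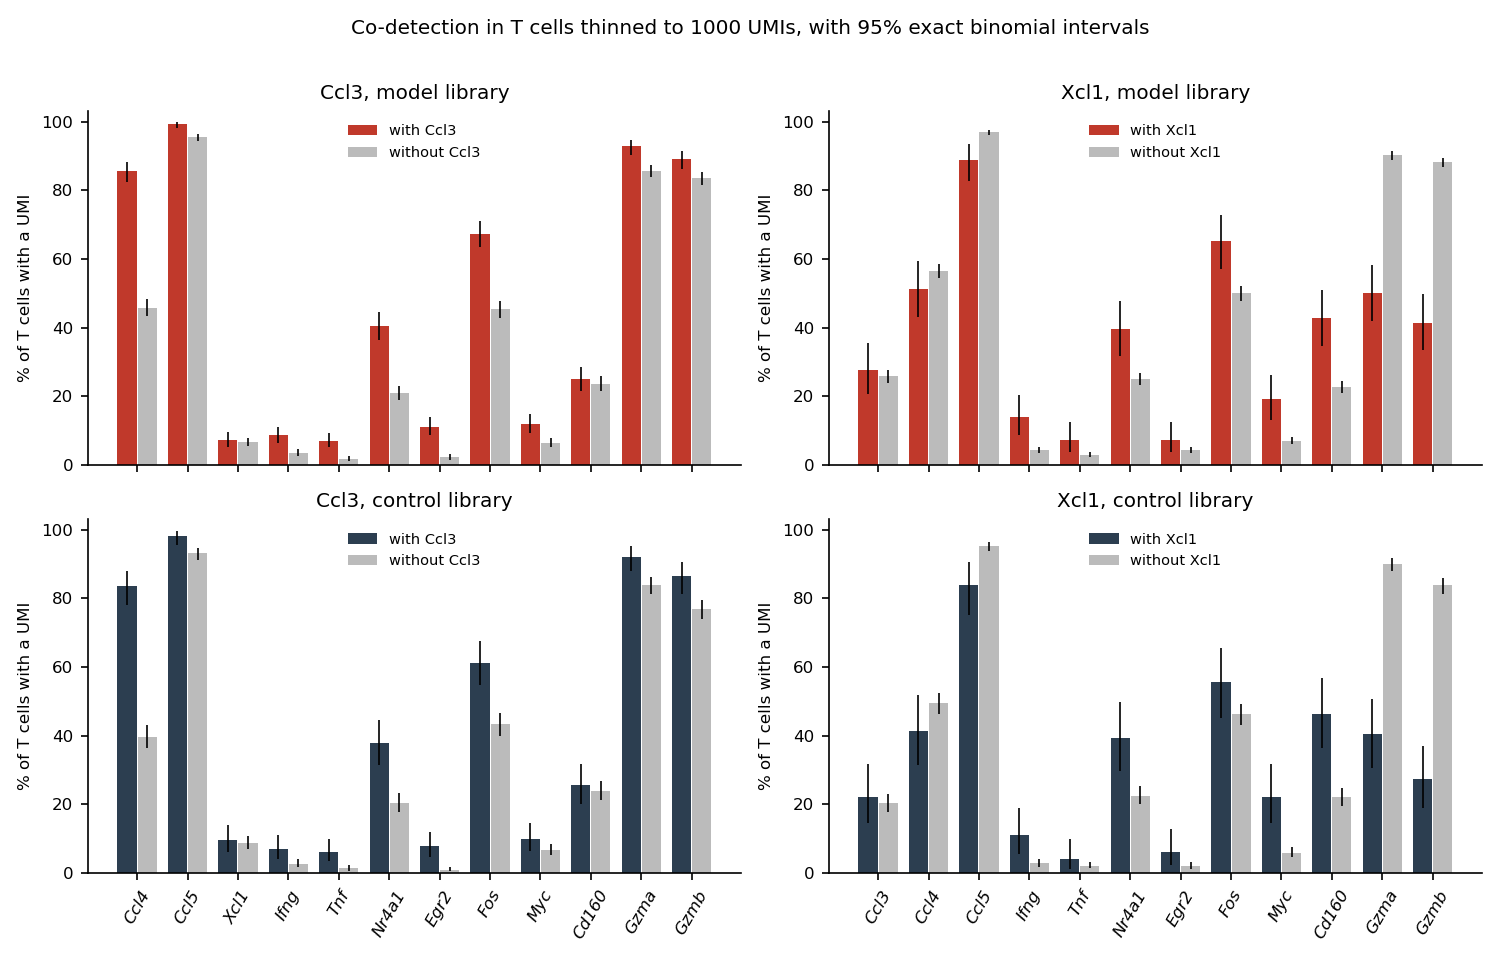
Share of T cells with a UMI of each gene (y axis, %) among cells with (coloured) and without (grey) a UMI of Ccl3 (left) or Xcl1 (right), model library above and control library below. Every cell was thinned to 1000 UMIs and lines are 95% exact binomial intervals. In each library Ccl4 is found in over 80% of Ccl3-positive cells, and Gzmb in under 45% of Xcl1-positive cells.

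Summed over T cells, few genes of the activation list differed between the libraries by the size used for a call. Of its 24 genes, 23 had enough UMIs in T cells, and 1 was called higher in the model, Dusp2 (a phosphatase that dampens kinase signalling; ratio 1.60), and 0 lower, where 1.56% and 2.09% of all genes in T cells were. The list's median log2 ratio was 0.11 against -0.03 over all genes. Egr2 had a ratio of 1.47 (1.22 to 1.80), Tnf 1.28 (1.03 to 1.59) and Ifng 1.12 (0.987 to 1.27).

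Across 20 classes, Ccl3 and Ccl4 were each the gene most like the other, with a Pearson correlation of log2(CPM + 10) of 0.98 over 5277 genes compared. The classes share libraries and depth, so this describes where the transcripts lay. Among those that came next were Cyth4, Pik3cd and Arhgap9 for Ccl3, and Cyth4, Itgb2 and Arhgap9 for Ccl4. The genes most like Ccl5 were Gzmb, Cd3g, Gzma, Nkg7 and Cd3e (0.96 to 0.99), and those most like Xcl1 were Zap70, Txk, Actn2, Fam189b and Trbc1 (0.96 to 0.98).

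In macrophage-like cells Ccl3 and Ccl4 were lower in the model, while dendritic-like cells had a higher level of Ccl4. Macrophage-like cells held 646 Ccl3 UMIs in the model (773 CPM) and 960 in the control (1013 CPM), a ratio of 0.763 (0.689 to 0.844). Their Ccl4 level was 2155 CPM in the model and 3189 CPM in the control, a ratio of 0.676 (0.637 to 0.717). After thinning, 43.9% of model (36.4 to 51.7) and 50.0% of control macrophage-like cells (42.8 to 57.2) held Ccl3, and 55.5% and 64.9% held Ccl4, with overlapping intervals for each gene. Plasma cell markers summed to 2795 CPM in the model and 16483 CPM in the control macrophage-like class. By leading genes the class also held other cells. Subcluster 10, led by the neutrophil markers S100a9 and S100a8, had 4 model and 9 control cells. Subcluster 9, with Gzma, Nkg7 and Cd3g among its leading genes, had 8 and 8. Subcluster 11, which met no name, had 10 model and 0 control cells. The part of all these in the Ccl3 and Ccl4 levels was not tested. Neither Ccl3 nor Ccl4 was called here (7.39% of genes were called higher and 6.84% lower), and Ccl5 was called higher.

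Dendritic-like cells held 866 Ccl4 UMIs in the model (1465 CPM) and 416 in the control (937 CPM), a ratio of 1.56 (1.39 to 1.76). It was 5.05 once the cells with the highest doublet scores were left out. Ccl4, Ccl5 (2.34) and Xcr1 were called higher there, where 9.38% of all genes were called higher and 8.48% lower. The Ccl5 ratio was 18.5 without the cells with the highest doublet scores. Plasma cell markers summed to 1506 CPM in the model and 6481 CPM in the control dendritic-like class. Enterocyte markers summed to 1176 and 3800 CPM. Their part in the Ccl4, Ccl5 and Xcr1 ratios was not tested. Plasmacytoid dendritic-like cells had a Ccl4 ratio of 1.08 (1.00 to 1.17) and a Ccl3 ratio of 0.940 (0.691 to 1.27), and neither was called (2.95% of genes higher and 6.41% lower). Both changed direction among the alternatives tried, between 0.872 and 1.57 for Ccl4 and between 0.869 and 1.41 for Ccl3. ILC3-like cells had 20 Ccl3 UMIs in 58 model cells and 1 in 27 control cells, a ratio of 11.3 with a counting interval of 1.80 to 467. Ccl5 was called lower in them (75 model and 83 control UMIs, ratio 0.509), where 7.36% of genes were called lower and 7.08% higher. Their 26 and 21 Xcl1 UMIs gave a ratio of 0.698 (0.378 to 1.30), but without the cell with most Xcl1 UMIs in each library it was 9.29, so single cells set its direction. Among the 20 classes compared over both libraries, ILC3-like cells were the one outside T cells with Xcl1 above 100 CPM. Dendritic-like and plasmacytoid dendritic-like cells held 0 Xcl1 UMIs in both libraries; in 101 model and 86 control dendritic-like cells the upper Poisson limits are 6.24 and 8.31 CPM.

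Xcr1, the Xcl1 receptor, was rare and nearly confined to dendritic-like cells. It had 107 UMIs in 36 kept cells, and 95 of them lay in 24 dendritic-like cells. These were 15 of 101 model cells (14.9%) with 67 UMIs and 9 of 86 control cells (10.5%) with 28 UMIs. The level was 113 CPM in the model (87.9 to 144) and 63.1 CPM in the control (41.9 to 91.2), a ratio of 1.80 (1.14 to 2.90). It was 4.34 after thinning, which leaves few UMIs. In T cells Xcr1 had 3 model and 0 control UMIs, and in macrophage-like cells 1 and 2.

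Xcr1-positive dendritic-like cells more often held most markers of cross-presenting dendritic cells. They were also deeper, at a median of 8469.5 UMIs against 4615 in Xcr1-negative ones, and the shares below were not thinned. By level, 9 of 10 such markers were higher in Xcr1-positive cells and Itgae was lower (272 and 298 CPM). Clec9a, the receptor by which these cells sense dead cells, was found in 62.5% of the 24 Xcr1-positive and 3.68% of the 163 Xcr1-negative dendritic-like cells. The viral RNA sensor gene Tlr3 was found in 58.3% and 4.91%, the adhesion gene Cadm1 in 41.7% and 3.07%, and Irf8, the transcription factor of this lineage, in 70.8% and 27.0%. All 10 markers measured of the other conventional kind had a lower level in Xcr1-positive cells, and most were found less often, with Irf4 in 8.33% and 30.7%, Sirpa in 16.7% and 33.7% and Cd209a in 20.8% and 38.7%. Dendritic-like cells with a Clec9a UMI had 444 CPM of Xcr1 over both libraries, and those with a Cd209a UMI had 9.72 CPM. By library the Clec9a gate had 456 CPM in the model and 425 CPM in the control, in 16 of 101 model and 5 of 86 control dendritic-like cells. The part of this difference in cell number in the Xcr1 ratio was not tested. No myeloid subcluster was named as either kind, so these cells were compared as gates. The 5 genes most like Xcr1 across classes, Ccl22, Mcpt1, Ccl17, Mcpt2 and Plet1, included the mast cell proteases Mcpt1 and Mcpt2, which were therefore also in the dendritic-like class, and Xcr1 stayed under 100 CPM in every class over both libraries.

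**Figure D5:**
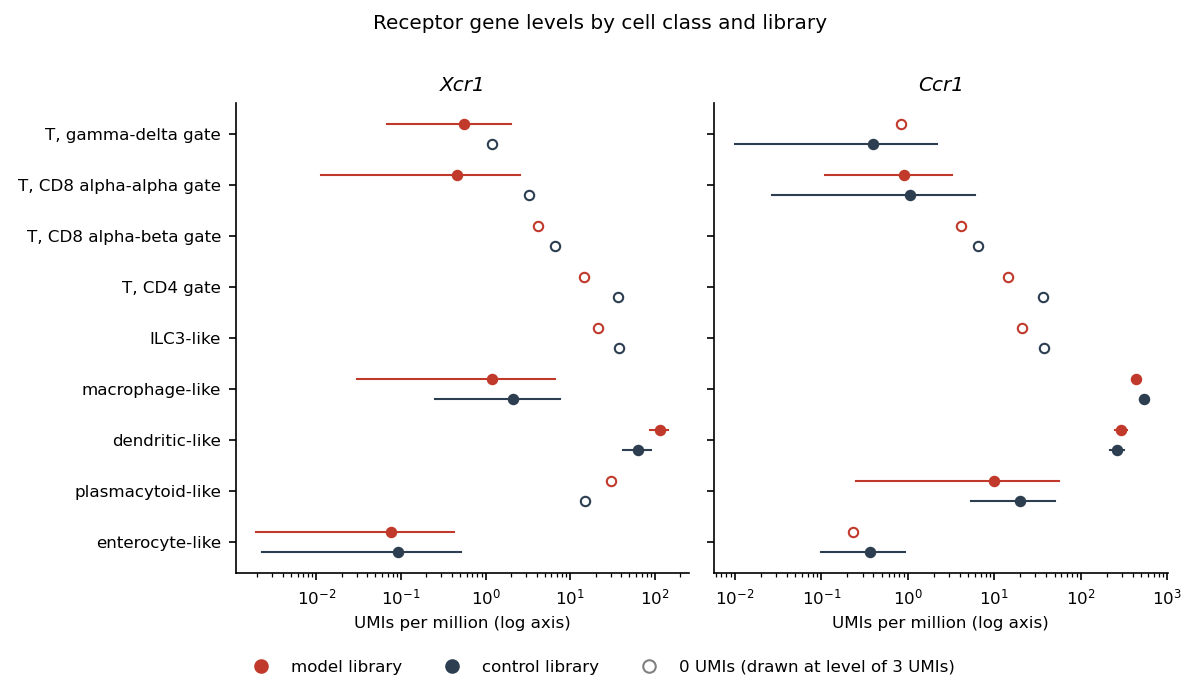
Level of the receptor genes Xcr1 and Ccr1 in CPM (log axis) in the same classes, model above control, with 95% Poisson intervals. Open points are 0 UMIs drawn at the level of 3 UMIs. Xcr1 stands out in dendritic-like cells (113 and 63.1 CPM) and Ccr1 in macrophage-like and dendritic-like cells.

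Ccr1 was found mostly in myeloid cells, at 439 CPM in the model and 536 CPM in the control in macrophage-like cells and at 293 and 264 CPM in dendritic-like cells. All T cells together held 2 Ccr1 UMIs in the model and 3 in the control. Ccr3, the eosinophil receptor, had 3 UMIs in each library, and Ackr2, a decoy receptor that clears inflammatory chemokines, had 8 in the model and 5 in the control.

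Other genes of the chemokine system were followed as a list of 42. In T cells 7 had enough UMIs and 0 were called in either direction (1.56% of all genes were called higher and 2.09% lower), among them the gut homing receptor gene Ccr9 (353 CPM in the model and 370 CPM in the control) and Cxcr6 (124 and 110 CPM). The median log2 ratio of the 7 was 0.17. In macrophage-like cells 15 had enough UMIs, 1 was called higher and 8 lower (7.39% and 6.84% of all genes), with a median log2 ratio of -0.62 against 0.02 over all genes of the class. The 8 included the monocyte attractants Ccl2 (127 CPM in the model and 330 CPM in the control, 2.61-fold lower) and Ccl7 (133 and 343 CPM, 2.58-fold lower) and the neutrophil attractant Cxcl1 (2.56-fold lower). The one called higher was the eosinophil attractant Ccl24, at 604 CPM in the model and 93.9 CPM in the control, a ratio of 6.43 (5.13 to 8.15). The class was made up differently in the libraries: subcluster 7, which Ccl24 helps to define, held 41 model and 19 control cells, and subcluster 6, led by Cbr2, Folr2 and Lyve1, 11 and 31. In subcluster 3, the named macrophage subcluster, with 62 and 67 cells, Ccl24 was at 1290 CPM in the model and 189 CPM in the control. In dendritic-like cells 7 were measured: Ccl17 and Ccl22, which attract Ccr4-bearing T cells, were called higher (ratios 2.40 and 2.38), and Cxcl10 (4.53-fold lower) and Cxcl16 (1.57-fold lower) were called lower, where 9.38% of all genes were called higher and 8.48% lower. Here too the libraries differed in makeup, with 58 model and 32 control cells in subcluster 1 and 21 and 36 in subcluster 4. Subcluster 4, with its cells of both myeloid classes, had a median of 994.5 UMIs and was led by the immunoglobulin genes Ighv7-3 and Igkv10-94. The Ccl17 UMIs lay in different subclusters: 106 of 179 in the model came from subcluster 1, and 49 of 56 in the control from subcluster 4, which had none in the model. In ILC3-like cells (7.08% of all genes called higher and 7.36% lower) and plasmacytoid dendritic-like cells (2.95% and 6.41%) 2 genes each were measured and 0 were called.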

How the data were processed

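Per the file headers, the authors deposited raw UMI counts per gene and barcode made with Cell Ranger 7.0.1; version 4.0 and build GRCm39 are given per the submitters' processing notes. Cells entered with 500 UMIs or more, 200 genes or more and a mitochondrial share up to 25%; they were normalised to 10000 UMIs for clustering only, and clustered with scanpy 1.11.5 (2000 variable genes without 66 chemokine system genes, 30 components, 15 neighbours, Leiden resolution 1). Scrublet called 0 doublets and so did not work as a caller; no cell was removed for it. Of 31 clusters 26 were named; a T-like cluster of low RNA content stayed unnamed and outside the T cell class. The libraries' 28 shared barcodes were not removed.

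Summed UMIs per class and library gave CPM. Poisson, Clopper-Pearson and conditional binomial 95% intervals cover counting error only; cells are not replicates. Shares of cells were also taken after thinning each cell to 1000 UMIs, which leaves out shallower cells. The intervals were tested on simulated Poisson counts, the setting they assume. That test does not cover transcripts clumped in single cells, as Xcl1 was. Named genes are the members, their receptors, listed genes with at least 50 UMIs and the 5 genes most like each member among genes that reach 100 CPM in a class. One further result is not reported here. The members and lists were chosen with earlier results of these data known. Subclusters, marker genes and codetected genes named beside them were picked after their values were seen.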

Additional observations from a re-analysis of the deposited data

Results flagged for a closer look

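Directions of 1 gene that differ between cell classes are given here; the differences between classes were not tested. Ccl3 was higher in model T cells (ratio of model over control 1.45) and lower in model macrophage-like cells (0.763). Ccl4 was higher in model T cells (1.42), dendritic-like cells (1.56) and plasmacytoid dendritic-like cells (1.08, which turned direction under 3 of 13 alternatives) and lower in model macrophage-like cells (0.676). Among T cell gates the Ccl4 ratio was 1.5 in the gamma-delta, 1.19 in the CD8 alpha-alpha and 1.77 in the CD8 alpha-beta gate and 0.685 in the CD4 gate. In the larger subcluster 2, named CD4 T cell but with most of its cells outside the CD4 gate, the Ccl4 interval lay above 1. Ccl5 was higher in model T cells (1.23), dendritic-like cells (2.34) and macrophage-like cells (2.78) and lower in model ILC3-like cells (0.509), which rests on 75 and 83 UMIs. The Ccl5 ratios of dendritic-like and macrophage-like cells reached 18.5 and 6.97 without the highest doublet scores, and the share of these cells with Ccl5 was not above that of enterocyte-like cells beyond counting error. The gamma-delta Ccl4 ratio was between 1.37 and 1.61 over its alternatives, and the CD8 alpha-alpha Ccl4 ratio between 1.09 and 1.49.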

How the results depend on the processing

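No paired analysis was possible because each group has 1 library. Over the alternatives run (filters, clustering, class total, thinning, high cells, gates), the ratios in T cells stayed above 1 for Ccl3 (1.42 to 1.56), Ccl4 (1.39 to 1.52) and Ccl5 (1.21 to 1.33), and below 1 for Xcl1 (0.366 to 0.550). Leaving out the single highest cell of each library was added after seeing the data. Leiden resolution 0.5 formed no dendritic-like class, and keeping chemokine genes among the variable genes formed no macrophage-like class, so these gave no values there. Few UMIs limit CD4 gated, ILC3-like and Xcr1 values.

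With each library clustered alone, T cell ratios were 1.56 (Ccl3), 1.52 (Ccl4), 1.33 (Ccl5) and 0.431 (Xcl1). Without the highest doublet scores, they were 1.49 (Ccl4) and 1.26 (Ccl5) in T cells, 0.686 (Ccl3) in macrophage-like, 5.05 (Ccl4) in dendritic-like and 1.36 (Ccl4) in plasmacytoid cells. Thinning gave 1.26 (Ccl5) and 0.536 (Xcl1) in T cells, 0.945 (Ccl3) and 0.730 (Ccl4) in macrophage-like cells, 1.33 (Ccl4) and 4.34 (Xcr1) in dendritic-like cells and 0.872 (Ccl4), the other direction, in plasmacytoid cells. The mean over cells gave 1.46 (Ccl4), 1.246 (Ccl5) and 0.499 (Xcl1) in T cells, 0.725 (Ccl4) in macrophage-like cells and 1.00 (just under 1, Ccl4) in plasmacytoid cells. Without the 1% of cells with most UMIs, T cells gave 1.51 (Ccl4), 1.24 (Ccl5) and 0.550 (Xcl1) and dendritic-like cells 1.98 (Ccl4); without the single highest cells, 1.45 (Ccl4) and 0.473 (Xcl1) in T cells and 2.19 (Ccl4) in dendritic-like cells. Chemokine genes among the variable genes gave 1.46 (Ccl4) and 1.27 (Ccl5) in T cells. For Ccl5 in T cells, the 10% mitochondrial limit gave 1.26, no limit 1.246, a minimum of 1000 UMIs 1.21 and resolution 2 gave 1.21. For Ccl4 in macrophage-like cells resolution 0.5 gave 0.745. For Ccl4 in plasmacytoid cells the 10% limit gave 0.979, below 1, no limit 1.47, a minimum of 1000 UMIs 1.57, and 1.55 under resolution 0.5, under resolution 2 and with chemokine genes kept. The cause of these shifts was not tested.

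The thinned share of control T cells with Ccl4 was 47.0% without a mitochondrial limit. Unthinned, Ccl3 was found in 53.0% of Ccl4-positive model and 49.9% of control T cells, and Ccl4 in 89.7% of Ccl3-positive model T cells. Xcr1 in dendritic-like cells was 444 CPM in the Clec9a gate and 9.72 CPM in the Cd209a gate. With a minimum of 20 UMIs 343 genes were called lower in T cells, against 189, and at a lower size limit there were 388 higher, against 141, and 565 lower.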
